A study of Mus musculus with 16 samples.

Results

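The D cyclins, the kinases they activate and the inhibitors of those kinases were examined in the mammary gland of pregnant mice with and without a Socs2-Δs mutation. The set was 10 genes chosen by name for their place in the G1 phase of the cell cycle: the D cyclins Ccnd1, Ccnd2 and Ccnd3, the kinases Cdk4 and Cdk6, the CIP/KIP inhibitors Cdkn1a, Cdkn1b and Cdkn1c, and the INK4 inhibitors Cdkn2b and Cdkn2c. All 10 were found among the 24187 rows of the authors' expression table. The table holds 7 of the 16 samples of the series, which are RNA libraries of whole mammary gland taken at day 13 of pregnancy from mice on a C57BL/6 background. Of these, 4 are wild type, from purchased mice, and 3 are Socs2-Δs, from mice made by CRISPR/Cas9. Source of the mice and genotype thus coincide, and their parts in any difference cannot be told apart. The labels do not say which sequence Δs removes, nor whether replicates are separate animals, so p-values measure only the spread between these libraries, which may be technical. For the 3 mutant RNA samples the label's genotype entry is wild type, against their titles and source names, and the titles were followed.

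D-type cyclins are made in response to growth factors and hormones, bind CDK4 or CDK6 and start the phosphorylation of the retinoblastoma protein, which releases E2F transcription factors and lets cells enter S phase. INK4 proteins bind CDK4 and CDK6 and keep D cyclins off them. CIP/KIP proteins bind whole cyclin-CDK complexes, inhibit those with CDK2 and also help cyclin D and CDK4 to assemble. In the mammary gland, cyclin D1 is needed for the growth of alveoli in pregnancy. Socs2 is an inhibitor of growth hormone and prolactin signalling and a target gene of STAT5.

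Libraries 3 and 4 of the wild type differed from the rest. On the first principal component of the tested genes, which held 61.6% of the variance, replicates 3 and 4 were at 57.1 and 77.9, replicates 1 and 2 at -15.8 and -18.2, and the mutant libraries between -37.7 and -29.6. The level of Neat1, a nuclear noncoding RNA, was 11.4 and 14.8 FPKM in replicates 3 and 4, against 442 to 586 FPKM in the other 5 libraries. Liver markers summed to 10.2 to 24.4 FPKM in 5 libraries, with 249 FPKM in the third wild-type library and 2296 FPKM in the fourth. Salivary gland markers summed to 350.1 and 229 FPKM in those libraries and to 58.0 to 102 FPKM in the other 5. B and T lymphocyte markers summed to 15.8 to 28.7 FPKM in 5 libraries, to 339 FPKM in the fourth wild-type library and to 254 FPKM in mutant replicate 2. Depth was similar, with 21.3 to 24.5 M reads recovered per library. Socs2 was measured at 25.6, 22.1, 24.8 and 16.1 FPKM in the wild type and at 17.1, 13.9 and 16.0 FPKM in the mutant. Every difference was computed against all 4 wild-type libraries and again against wild-type replicates 1 and 2. That second comparison was set with earlier results of these data known, in which replicates 3 and 4 stood apart. The 2 comparisons share the mutant libraries and are not independent.

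Of the 10 genes, 9 reached the mean of 1 FPKM required for testing and Cdk6 did not. None of the 9 passed the limma threshold of an adjusted p under 0.05 in either comparison. Against all 4 wild-type libraries 8 of the 9 log2 differences (mutant minus wild type) were below 0, the median was -0.62 against -0.004 over all 13392 tested genes, and adjusted p ranged from 0.160 to 0.852. At an unadjusted p under 0.05 there were 2 of the 9, Ccnd2 and Cdkn2c, against 18.1% of all tested genes, so this share was near that of the table. The table as a whole held 6 genes past the adjusted threshold, all higher in the mutant, which is 0.0448% of those tested. Against wild-type replicates 1 and 2, 8 of the 9 were again below 0, with a median of -0.30 against 0.03 over all genes. Adjusted p ranged from 0.0718 to 0.912, and 4 of the 9, Ccnd1, Ccnd2, Cdkn1a and Cdkn2c, had an unadjusted p under 0.05, against 20.1% of all tested genes. In that comparison 169 genes rose and 91 fell, 1.94% of those tested. After scaling to equal recovered reads, an alternative added after the data were seen, the numbers were 153 and 274.

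The mutant libraries all lay below the wild-type libraries for 2 of the 9 genes, Ccnd2 and Cdkn2c, when all 4 wild-type libraries were counted, and for 10.0% of all tested genes. Against wild-type replicates 1 and 2 this held for 4 of the 9, those same genes with Ccnd1 and Cdkn1a, and for 18.1% of all tested genes. Adipocyte markers, none of them near 0 in all libraries, were also lower in the mutant. They summed to 10773, 12787, 13529 and 23116 FPKM over the 4 wild-type libraries and to 3590 to 6830 FPKM over the mutant ones, with 9 of the 10 below 0 in both comparisons and 1 of them past the threshold in the second. Macrophage markers, at 503 to 999 FPKM in the wild type and 353 to 435 FPKM in the mutant, were below 0 for 9 of 9. Fibroblast markers, at 2522 to 3311 FPKM and 1548 to 2169 FPKM, were below 0 for 9 of 10 and, in the second comparison, 10 of 10. Alveolar secretory markers went the other way, at 3158 to 30013 FPKM in the wild type and 50045 to 64737 FPKM in the mutant, with all 10 above 0 and 6 of them past the threshold against wild-type replicates 1 and 2. Luminal epithelium markers were above 0 for 10 of 10 in both comparisons (medians 0.58 and 0.40), with none past the threshold and overlapping sums. Basal markers stood at 5 above and 5 below in both. Endothelial markers stood at 5 and 5, then at 1 above and 9 below. The part of these markers in the differences of the cell cycle genes was not tested. In whole glands, fewer cells of a type and less RNA per cell cannot be told apart.

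**Figure D1:**
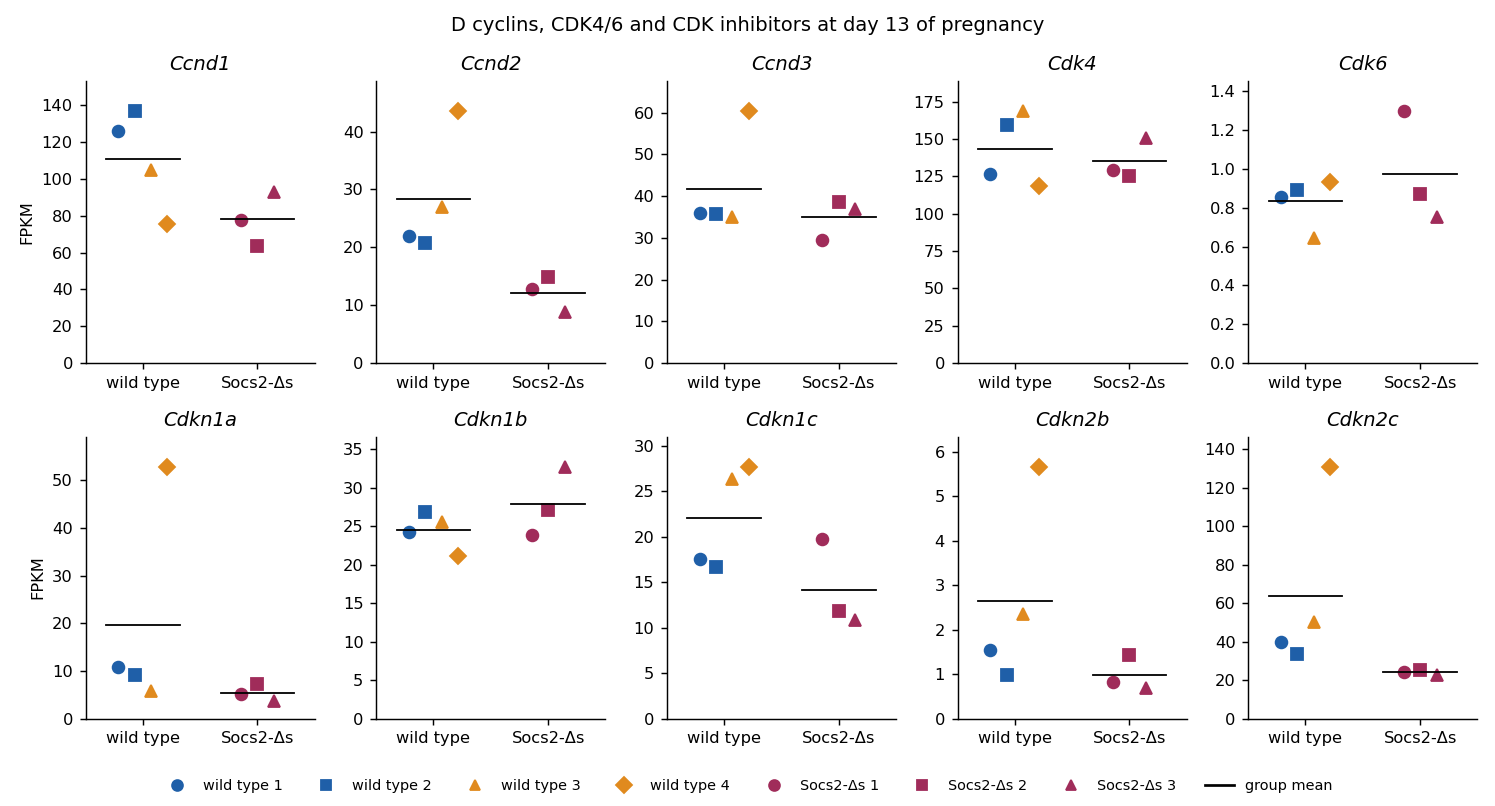
FPKM (vertical axis, from 0, with a scale of its own for each gene) of the 10 genes in each of the 4 wild-type and 3 Socs2-Δs libraries, with each library as a point and the group mean as a line. Wild-type replicate 4 is the highest wild-type point for Ccnd2, Ccnd3, Cdk6 and every inhibitor except Cdkn1b, and the lowest for Ccnd1, Cdk4 and Cdkn1b.

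Ccnd1, which encodes the D cyclin most closely tied to epithelial growth in the gland, was the most abundant of the 3 per unit of length. It was measured at 126, 137, 105 and 75.6 FPKM in wild-type replicates 1 to 4 and at 77.7, 63.6 and 92.7 FPKM in mutant replicates 1 to 3. The mutant libraries lay below the first 3 wild-type libraries, and wild-type replicate 4 lay inside the mutant range. The mean was 111 ± 26.97 FPKM (SD, n = 4) in the wild type, 131 ± 7.42 (SD, n = 2) in its replicates 1 and 2, and 78.0 ± 14.6 (SD, n = 3) in the mutant. Against all 4 libraries the difference was -0.48 on the log2(FPKM + 1) scale (SE 0.25, adjusted p = 0.333), and -0.27 after quantile normalization. Against replicates 1 and 2 it was -0.76 (SE 0.18, adjusted p = 0.0989), a mutant mean of 0.594 times theirs. After scaling to equal recovered reads the second difference was -0.93 with an adjusted p of 0.0424, the smallest over its alternatives, of which the largest was 0.354.

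Ccnd2, a D cyclin often expressed in lymphoid, gonadal and other non-epithelial cells, differed most among the D cyclins when all libraries were counted. It stood at 22.0, 20.8, 27.04 and 43.5 FPKM in the wild type and at 12.9, 14.8 and 8.84 FPKM in the mutant. Every mutant library was below every wild-type library, and replicate 4 was the highest of the 7. The difference was -1.12 (SE 0.29, 95% interval -1.78 to -0.46, adjusted p = 0.160) against all 4 libraries, with means of 28.3 ± 10.5 (SD, n = 4) and 12.2 ± 3.04 FPKM (SD, n = 3). It was -0.79 (SE 0.21, adjusted p = 0.122) against replicates 1 and 2. Lymphocyte markers were highest in wild-type replicate 4, at 339 FPKM, and in mutant replicate 2, at 254 FPKM. Each was also the library of its group with the most Ccnd2, and likewise with the most Ccnd3, Cdkn1a, Cdkn2b and Cdkn2c. Lymphocyte markers stood at 5 above and 6 below 0 against all 4 libraries. Against replicates 1 and 2, where Ccnd2 was below 0, all 11 were above 0 (median 0.87). The part of lymphocytes in the Ccnd2 differences was not tested.

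Ccnd3, the D cyclin expressed in many differentiated tissues, showed no such separation. It was measured at 36.0, 35.8, 35.0 and 60.4 FPKM in the wild type and at 29.6, 38.7 and 37.0 FPKM in the mutant. The first 3 wild-type libraries were close to each other and inside the mutant range, and replicate 4 was above the other 6. The difference was -0.22 (95% interval -0.75 to 0.32, adjusted p = 0.597) against all 4 libraries and -0.04 (95% interval -0.40 to 0.31, adjusted p = 0.912) against replicates 1 and 2. The first was -0.03 without wild-type replicate 4 and -0.10 without mutant replicate 1, and the second turned to 0.07 without mutant replicate 1.

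Summed over the 3 genes, D cyclin transcripts stood at 184, 193, 167 and 179 FPKM in the wild type and at 120.2, 117 and 139 FPKM in the mutant, with no overlap. The sum was similar in the 4 wild-type libraries although its makeup was not. Ccnd1 made up 68.5, 70.7 and 62.8% of it in wild-type replicates 1 to 3 and 42.1% in replicate 4. In the mutant the share of Ccnd1 was 64.7, 54.3 and 66.9%. Ccnd2 held 10.7 to 16.2% in wild-type replicates 1 to 3, 24.2% in replicate 4 and 6.38 to 12.6% in the mutant. The ratio of Ccnd1 to Ccnd2 was thus lowest in wild-type replicate 4, at 1.74, and highest in mutant replicate 3, at 10.5, with the other 5 libraries between 3.87 and 6.58. These sums and shares are descriptions, without a test.

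Cdk4, the catalytic partner of the D cyclins in most epithelia, was the most abundant of the 10 genes in 6 of the 7 libraries. Its promoter is shown because it carries several copies of the E-box CACGTG, a motif bound by MYC and related factors. The bases before its start in RefSeq (GRCm38.p6, chr10:127063285-127063534, plus strand) are given 5′ to 3′ with the E-boxes in capitals.
Cdk4: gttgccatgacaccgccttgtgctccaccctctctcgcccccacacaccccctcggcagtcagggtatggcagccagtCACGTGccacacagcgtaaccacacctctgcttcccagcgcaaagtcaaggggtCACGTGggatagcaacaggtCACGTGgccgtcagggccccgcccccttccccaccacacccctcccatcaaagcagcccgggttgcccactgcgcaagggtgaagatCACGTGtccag
The 4 E-boxes began 172, 118, 98 and 11 bases before the start. Of 32851 RefSeq windows of the same length, 6.02% held CACGTG, whose 2 strands read the same. Windows were at hand for 7 of the 10 genes, and among these Cdk6 also held 1 copy. The window overlaps no other annotated gene.

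Its level was 127, 159, 168 and 118 FPKM in the wild type and 129, 125 and 150.3 FPKM in the mutant. The 3 mutant libraries lay inside the wild-type range. The difference was -0.07 (SE 0.21, 95% interval -0.55 to 0.40, adjusted p = 0.852) against all 4 libraries and -0.08 (SE 0.16, 95% interval -0.48 to 0.32, adjusted p = 0.841) against replicates 1 and 2. Its sign turned to 0.23 after quantile normalization, to 0.01 without wild-type replicate 3 and, against replicates 1 and 2, to 0.09 without replicate 2. The intervals are wide enough to hold a change of either sign.

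Cdk6, the second kinase of the D cyclins and the main one in many blood cells, was near the bottom of the measured range. It was listed at 0.858, 0.893, 0.646 and 0.933 FPKM in the wild type and at 1.30, 0.871 and 0.750 FPKM in the mutant, from 34 to 75 recovered reads per library. The groups overlapped. Per unit of length Cdk4 stood above it by a factor of 99.6 in mutant replicate 1, the lowest, and 261 in wild-type replicate 3, the highest. When the filter on low values was dropped, the Cdk6 difference was 0.10 against all 4 libraries (adjusted p = 0.701) and 0.06 against replicates 1 and 2 (adjusted p = 0.871).

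The ratio of Ccnd1 to Cdk4 was 0.996, 0.860, 0.621 and 0.639 in wild-type replicates 1 to 4 and 0.602, 0.507 and 0.617 in the mutant. Wild-type replicates 3 and 4 were thus closer to the mutant than to the other wild-type libraries in this ratio, while still above all 3 mutant libraries.

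**Figure D2:**
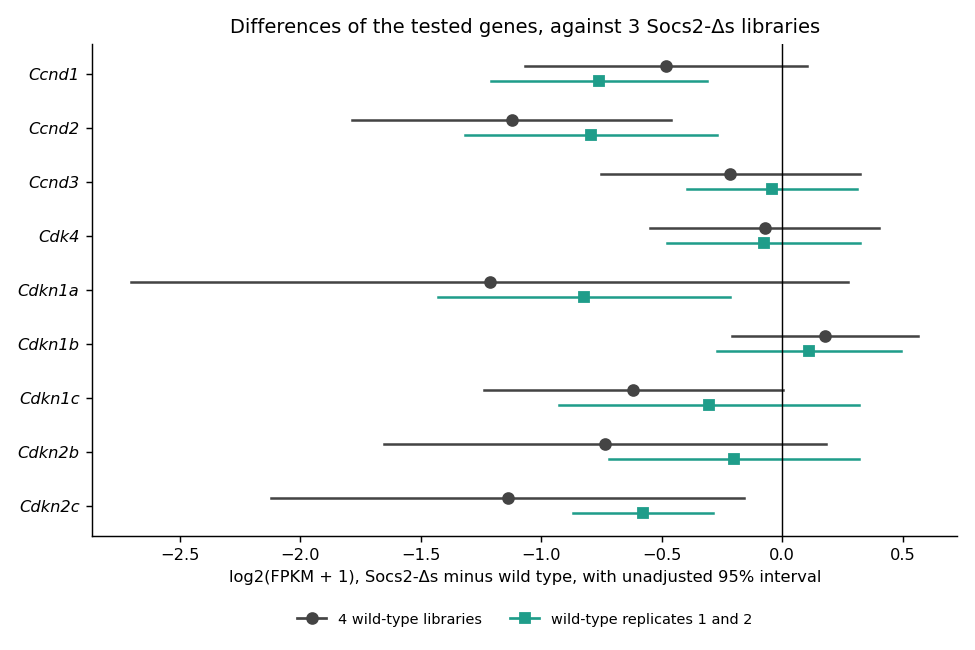
Difference of each of the 9 tested genes (horizontal axis, Socs2-Δs minus wild type on the log2(FPKM + 1) scale, with the unadjusted 95% interval as a bar), against all 4 wild-type libraries as circles and against replicates 1 and 2 as squares. Cdkn1b is the 1 gene to the right of 0, and the Cdkn1a and Cdkn2c intervals shorten most when wild-type replicates 3 and 4 are left out.

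Cdkn1a, Cdkn1b and Cdkn1c encode the inhibitors p21, p27 and p57. Cdkn1a is the best known target gene of p53, and its promoter is shown because it alone among the 10 windows of these genes held the p53 motif searched, CATG, any 6 bases, CATG. The bases before its first start in RefSeq (GRCm38.p6, chr17:29090729-29090978, plus strand) follow with the match in capitals.
Cdkn1a: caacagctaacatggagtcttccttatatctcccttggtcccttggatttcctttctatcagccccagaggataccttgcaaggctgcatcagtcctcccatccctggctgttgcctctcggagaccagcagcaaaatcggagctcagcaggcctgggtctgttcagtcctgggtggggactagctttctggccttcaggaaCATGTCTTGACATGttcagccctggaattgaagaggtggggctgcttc
The match began 48 bases before the start. It reads as the same motif on both strands and was found in 0.49% of the 32851 windows. The window overlaps no annotated gene.

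Cdkn1a stood at 10.9, 9.24, 5.72 and 52.8 FPKM in the wild type and at 5.23, 7.28 and 3.72 FPKM in the mutant. Wild-type replicate 4 was 4.84 times the next highest library. Replicate 3, which also stood apart on the principal component, was the lowest wild-type library and lay inside the mutant range. The wild-type SD of 22.2 FPKM exceeded the mean of 19.7 (n = 4). The mutant mean was 5.41 ± 1.79 FPKM (SD, n = 3). The difference was -1.21 with an SE of 0.64 (adjusted p = 0.334), -0.58 without wild-type replicate 4, and -0.82 (SE 0.24, adjusted p = 0.147) against replicates 1 and 2. Counts behind these values ran from 163 to 2182 recovered reads.

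Other p53 targets lay on both sides of 0. Of 16 such genes 14 were tested, with 9 below 0 and 5 above (median -0.10) against all 4 libraries, and 6 below and 8 above (median 0.02) against replicates 1 and 2. Under quantile normalization the first split was 7 and 7, and after scaling to equal recovered reads the second was 11 below and 3 above. The 1 call in the deposited scaling was Phlda3, which encodes an inhibitor of AKT signalling and fell by 1.03 (adjusted p = 0.0277) against replicates 1 and 2. Phlda3 was at 98.5, 92.8, 126 and 147 FPKM in the wild type and at 46.4, 42.8 and 49.6 in the mutant. Leaving out any 1 of those 5 libraries ended the call, with the smallest adjusted p of 0.0597 without mutant replicate 3 and the largest of 0.222 without wild-type replicate 1. Dropping the filter also ended it (adjusted p = 0.0845). Against all 4 libraries the difference was -1.28 (adjusted p = 0.0930, and 0.0443 under quantile normalization).

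Cdkn1b was the 1 tested gene of the 10 with a mean higher in the mutant. It was measured at 24.3, 26.8, 25.6 and 21.1 FPKM in the wild type and at 23.9, 27.1 and 32.7 FPKM in the mutant. The groups overlapped, with mutant replicate 3 above the other 6 libraries and wild-type replicate 4 below them. The difference was 0.18 (SE 0.17, 95% interval -0.21 to 0.56, adjusted p = 0.549) against all 4 libraries and 0.11 (SE 0.15, adjusted p = 0.745) against replicates 1 and 2. The first was 0.11 without wild-type replicate 4 and 0.06 without mutant replicate 3. The second became -0.005 without mutant replicate 3 and -0.06 after scaling to equal recovered reads.

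Cdkn1c, an imprinted gene expressed from the maternal copy in mice, had 17.5, 16.7, 26.3 and 27.7 FPKM in the wild type and 19.7, 11.9 and 10.9 FPKM in the mutant. Wild-type replicates 3 and 4 were higher than the other 5 libraries, and mutant replicate 1 lay above wild-type replicates 1 and 2. The difference was -0.62 (SE 0.27, adjusted p = 0.277) against all 4 libraries and -0.30 (SE 0.25, adjusted p = 0.561) against replicates 1 and 2. The latter was -0.55 without mutant replicate 1 and -0.15 without mutant replicate 3. Within the CIP/KIP group Cdkn1b had the largest share of summed FPKM in 5 of the 7 libraries, with 48.9 to 69.2% in the mutant and 46.1 and 50.8% in the first 2 wild-type libraries. In wild-type replicate 4 Cdkn1a had the largest share, 52.0%, and Cdkn1b 20.8%. In wild-type replicate 3 Cdkn1c held 45.7% and Cdkn1b 44.4%.

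Cdkn2b and Cdkn2c encode the INK4 inhibitors p15 and p18. Cdkn2c made up 94.7 to 97.2% of their summed FPKM in every library. Its promoter is shown because Cdkn2c had the smallest adjusted p of the 10 genes against wild-type replicates 1 and 2. The window of its first start also held 3 GC boxes, the most among the 10 windows of these genes. GC boxes are bound by SP1 and related factors. The bases before its first start in RefSeq (GRCm38.p6, chr4:109666757-109667006, minus strand, read along the gene) follow with GGGCGG in capitals.
Cdkn2c: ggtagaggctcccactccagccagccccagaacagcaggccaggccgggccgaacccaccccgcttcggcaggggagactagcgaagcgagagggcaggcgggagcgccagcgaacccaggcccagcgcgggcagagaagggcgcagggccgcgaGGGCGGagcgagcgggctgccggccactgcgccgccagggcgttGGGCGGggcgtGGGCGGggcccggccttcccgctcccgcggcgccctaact
The 3 matches began 95, 51 and 40 bases before the start. GGGCGG on either strand was found in 32.7% of the 32851 windows, so it is a common feature. The window before the second start of Cdkn2c held none. The window overlaps no annotated gene.

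Cdkn2c was measured at 39.9, 33.8, 50.1 and 131 FPKM in the wild type and at 24.5, 25.4 and 22.9 FPKM in the mutant. Every mutant library was below every wild-type library. Wild-type replicate 4 was 2.61 times the next highest and was the 1 library in which Cdkn2c, not Cdk4, led the 10 genes. The mutant mean was 24.3 ± 1.28 FPKM (SD, n = 3), against 36.8 ± 4.36 (SD, n = 2) in wild-type replicates 1 and 2 and 63.7 ± 45.3 (SD, n = 4) in all wild-type libraries. The difference was -1.14 (SE 0.43, 95% interval -2.12 to -0.16, adjusted p = 0.239) against all 4 libraries. It was -0.73 without replicate 4 and -0.58 (SE 0.12, 95% interval -0.87 to -0.29, adjusted p = 0.0718) against replicates 1 and 2.

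Cdkn2b, a gene known to respond to TGF-β, was measured at 1.55, 0.986, 2.36 and 5.67 FPKM in the wild type and at 0.828, 1.42 and 0.698 FPKM in the mutant. Wild-type replicate 4 was again the highest, and mutant replicate 2 lay between wild-type replicates 2 and 1. These values rest on 21 to 161 recovered reads. The difference was -0.74 (SE 0.40, adjusted p = 0.337) against all 4 libraries, -0.39 without wild-type replicate 4, and -0.20 (SE 0.21, adjusted p = 0.654) against replicates 1 and 2. The last was -0.02 without wild-type replicate 1, -0.38 without replicate 2, -0.35 without mutant replicate 2 and -0.10 without mutant replicate 3.

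The 5 inhibitors summed to 94.2, 87.5, 110.2 and 238 FPKM in the wild type and to 74.1, 73.1 and 70.9 FPKM in the mutant, with no overlap. Both sums were lower in the mutant than in wild-type replicates 1 and 2. The ratio of D cyclins to inhibitors was 1.955, 2.21, 1.51 and 0.754 in the wild type and 1.62, 1.60 and 1.954 in the mutant. The 3 mutant libraries lay below wild-type replicates 1 and 2 and above replicates 3 and 4, by a narrow margin between mutant replicate 3 and wild-type replicate 1. Wild-type replicate 4 was the 1 library in which inhibitor transcripts exceeded D cyclin transcripts.

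**Figure D3:**
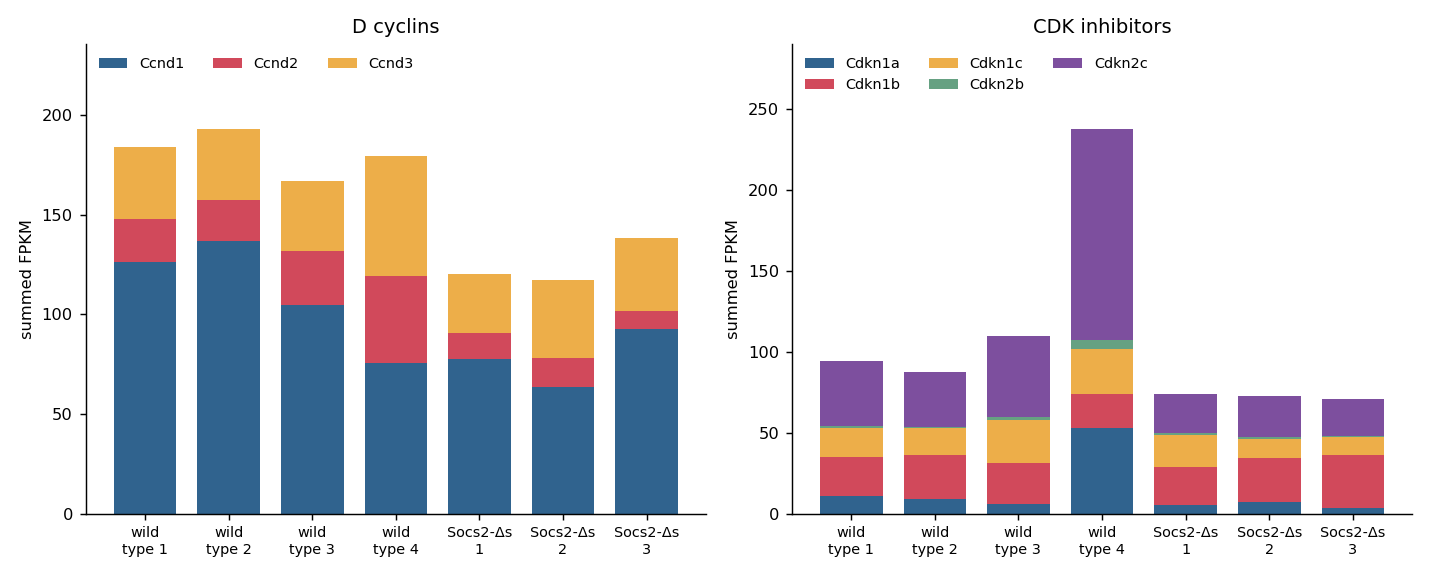
Summed FPKM (vertical axis, from 0) of the 3 D cyclins at left and of the 5 CDK inhibitors at right in each of the 7 libraries, stacked by gene. The D cyclin bars of the mutant stand at 117 to 139 against 167 to 193 in the wild type, and the inhibitor bar of wild-type replicate 4 reaches 238.

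In the mutant the levels per unit of length ran, from the highest, Cdk4, Ccnd1, Ccnd3, Cdkn1b, Cdkn2c, Cdkn1c, Ccnd2, Cdkn1a, Cdkn2b and Cdk6. Among neighbours in this order, the ranges over the 3 libraries overlapped for Ccnd3 and Cdkn1b, for Cdkn1b and Cdkn2c, for Cdkn1c and Ccnd2, and for Cdkn2b and Cdk6. In wild-type replicates 1 and 2 Cdk4 and Ccnd1 also led, and Cdkn2c and Ccnd3 shared the next places. In wild-type replicate 4 the order was Cdkn2c, Cdk4, Ccnd1, Ccnd3, Cdkn1a, Ccnd2, Cdkn1c, Cdkn1b, Cdkn2b and Cdk6, which placed Cdkn1a above Cdkn1b in this library alone.

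Promoter windows were at hand for 7 of the 10 genes, not for Ccnd1, Ccnd2 or Cdkn1c. None of their 10 windows held the STAT motif TTCNNNGAA, which 7.02% of all windows held on either strand, and none held the E2F motifs TTTCCCGC (0.895% of windows) or TTTGGCGC (0.417%). Cdkn2b held 1 copy of the cAMP response motif TGACGTCA, 46 bases before its start, against 1.55% of all windows. Its window overlaps the annotated gene Gm12610. A match or its absence says only which letters stand in these windows.

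The genes around the D cyclins and inhibitors were described from lists by role. Of 22 other G1 genes (E cyclins, CDK2, further INK4 genes, pocket proteins and E2F factors) 20 were tested, and none passed the threshold in either comparison. They stood at 8 above and 12 below 0 against all 4 libraries (median -0.07) and at 10 and 10 against replicates 1 and 2 (median -0.01), the latter becoming 2 and 18 after scaling to equal recovered reads. E2f1, an activator of S phase genes, was at 8.43, 10.3, 8.18 and 8.40 FPKM in the wild type and at 4.90, 5.69 and 5.41 FPKM in the mutant, without overlap. Its difference was -0.63 (adjusted p = 0.141) against all 4 libraries. Against replicates 1 and 2 it was -0.71 (adjusted p = 0.0617), and the adjusted p was 0.0496 under median-of-ratios scaling and 0.0327 after scaling to equal recovered reads. Cdc25a, a phosphatase that activates CDK2, overlapped between the groups, at 4.34 to 7.87 FPKM in the wild type and 7.24 to 9.10 FPKM in the mutant (difference 0.40, adjusted p = 0.307). Against replicates 1 and 2 the difference of Cdc25a was 0.20 (adjusted p = 0.566), and it was 0.003 without wild-type replicate 1.

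Of 22 S phase and mitosis genes, 18 were below 0 and 4 above against all 4 libraries (median -0.31), and 21 were below and 1 above against replicates 1 and 2 (median -0.41). None passed the threshold in either comparison in the deposited scaling. Across the other scalings 17 or 18 were below 0 in the first comparison and 21 or 22 in the second. In the second, 2 passed the threshold under quantile normalization and 3 after scaling to equal recovered reads. Mcm3, a subunit of the replicative helicase, was at 21.3, 28.1, 16.3 and 20.6 FPKM in the wild type and at 13.4, 15.1 and 13.8 FPKM in the mutant, without overlap. Its difference was -0.56 (adjusted p = 0.224) and, against replicates 1 and 2, -0.76 (adjusted p = 0.0661, and 0.0399 under quantile normalization and 0.0324 after scaling to equal recovered reads). Pcna, the sliding clamp of DNA replication, was at 83.7, 111, 151 and 102 FPKM in the wild type and at 65.3, 69.5 and 77.8 FPKM in the mutant, also without overlap (difference -0.62, adjusted p = 0.235, and -0.44 with an adjusted p of 0.216 against replicates 1 and 2).

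Genes of protein turnover and handling of D cyclins and KIP inhibitors lay on both sides of 0. None of the 15 passed the threshold, with 7 above and 8 below (median -0.04) against all 4 libraries and 10 above and 5 below (median 0.06) against replicates 1 and 2, the latter becoming 2 and 13 after scaling to equal recovered reads. Fbxo4, an F-box protein that has been linked to cyclin D1 degradation, was at 3.87 to 8.79 FPKM in the wild type and 2.65 to 3.37 FPKM in the mutant (difference -0.70, adjusted p = 0.226). Against replicates 1 and 2 the difference of Fbxo4 was -0.37 (adjusted p = 0.198). Fbxw7, an F-box protein that targets cyclin E, was at 5.37 to 8.23 FPKM in the wild type and 8.19 to 10.04 FPKM in the mutant, an overlap of 1 library from each group (difference 0.43, adjusted p = 0.258, and 0.51 with an adjusted p of 0.126 against replicates 1 and 2).

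Of 17 transcription factors that act on D cyclin and inhibitor genes, 11 were above 0 and 6 below in both comparisons, with medians of 0.36 and 0.19. After scaling to equal recovered reads the second split was 9 and 8. The 1 call was Stat5a, which transmits prolactin signals in the gland and rose by 0.93 (adjusted p = 0.0397) against replicates 1 and 2. It was at 50.1, 53.003, 30.8 and 20.9 FPKM in the wild type and at 104.8, 88.9 and 103.8 FPKM in the mutant, without overlap. Against all 4 libraries the difference was 1.42 with an adjusted p of 0.143. Leaving out any 1 of the 5 libraries ended the call, with the smallest adjusted p of 0.0850 without mutant replicate 3 and the largest of 0.270 without wild-type replicate 1, and dropping the filter also ended it (adjusted p = 0.0891).

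Which genes varied over the 7 libraries most like a given member was described for Cdkn1a, Cdkn2c and Ccnd2, the 3 tested genes of the set with the largest difference against all 4 wild-type libraries. Likeness was the root mean square of the distance between deviations from each gene's own mean, on the log2(FPKM + 1) scale, over 12612 named genes. For Cdkn2c the nearest was Tuba1a, an alpha tubulin gene, at a distance of 0.06, with 630, 575, 761 and 2162 FPKM in the wild type and 395, 399 and 388 FPKM in the mutant. Slc7a11, a cystine transporter, followed at 0.11 and Thbd, thrombomodulin, at 0.12. For Ccnd2 the nearest were C1s1, a complement protease gene, at 0.11, Plbd1 at 0.14 and Sqrdl at 0.15. C1s1 was at 81.3, 63.7, 81.3 and 148 FPKM in the wild type and at 44.3, 49.6 and 34.4 FPKM in the mutant. For Cdkn1a the nearest genes were farther, with Pon1, a paraoxonase made in liver, at 0.24 and Syp and Tshr at 0.27. All 9 of these genes were highest in wild-type replicate 4, as were the members they were matched to. The 9 genes were picked for likeness over these same libraries, so the shared peak follows from the choice. No p was computed.

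**Figure D4:**
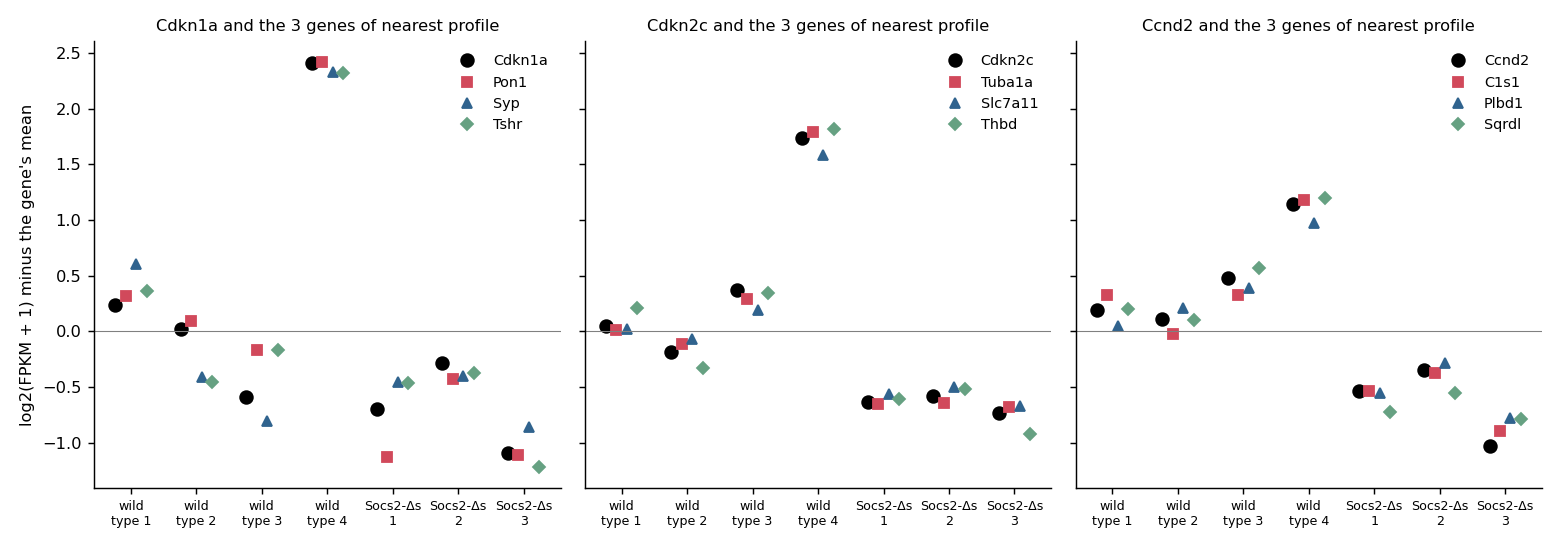
Deviation from each gene's mean over the 7 libraries (vertical axis, log2(FPKM + 1)) for Cdkn1a, Cdkn2c and Ccnd2 as black circles, each with its 3 nearest genes as coloured points. Wild-type replicate 4 is the highest library for all 12 genes, and the distance to the nearest gene is 0.06 for Cdkn2c and 0.24 for Cdkn1a.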

How the data were processed

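RNA of whole mammary gland was sequenced in 7 samples. Per the labels' protocols, poly(A) RNA from a Trizol and column extraction went into a TruSeq RNA kit. CASAVA, Bowtie2, STAR, DESeq2 and the build mm9 appear in the submitters' processing notes, without versions or roles. The values the authors deposited are FPKM, reads per kilobase of gene scaled per library. That scaling did not follow the recovered reads alone. Recovered reads times the relative worth of 1 read, equal in all libraries if it had, differed. They ran from 0.851 of the mean in wild-type replicate 1 to 1.171 in replicate 3. FPKM over all genes summed to 421374 and 771273 in those libraries. The sources used here give neither strand use nor annotation. The other 9 samples (ChIP-seq and DNase-seq) were not used here.

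Titles gave the groups. Values of log2(FPKM + 1) were fitted with limma 3.58.1 (R 4.3.3; empirical Bayes, mean-variance trend) for the 13392 genes whose mean reached 1 FPKM, with Benjamini-Hochberg adjustment over all of them and a threshold of 0.05. Differences on this scale understate changes of low genes. The same genes were fitted again with wild-type replicates 1 and 2 only. Alternatives were another pseudocount, no filter, quantile and median-of-ratios scaling, no trend, a replicate block, a term for wild-type replicates 3 and 4, each library left out, and, added later, equal recovered reads. Whole reads were recovered from the steps between low FPKM values and gave 21.3 to 24.5 M reads per library. The fit was tested on simulated data.

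All 10 genes were named. From each pathway list the genes past the threshold in either comparison were named, otherwise the 2 of smallest p. The members, the lists and the second comparison were chosen with earlier results of these data known. Promoters and overlapping genes came from RefSeq GRCm38.p6, not from mm9.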

Additional observations from a re-analysis of the deposited data

Results flagged for a closer look

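In the wild-type group of 4 libraries, 3 of the 10 genes had a library far from the others by Dixon's criterion, which compares the gap to the nearest library with the whole range. In each it was wild-type replicate 4, the highest. Ccnd3 was at 60.4 FPKM there against 35.0 to 36.0 FPKM in the other wild-type libraries. Cdkn1a was at 52.8 FPKM against 5.72 to 10.9 FPKM. Cdkn2c was at 131 FPKM against 33.8 to 50.1 FPKM. The 3 results come from the same library, so they are not independent. All 3 genes are among the 9 tested. Of all 13392 tested genes 6.14% passed the criterion, and 2.99% passed it with wild-type replicate 4 as the highest. Chance alone passes it in about 1 of 20 groups.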

How the results depend on the processing

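Of 252 differences of the 10 genes recomputed under alternatives, 244 kept their direction and their side of the threshold, 7 turned their sign and 1 passed the threshold. Turned signs were those of Cdk4 against all 4 wild-type libraries under quantile normalization (0.23) and with 1 library left out (-0.16 to 0.01), of Cdkn1b against wild-type replicates 1 and 2 after scaling to equal recovered reads (-0.057) and with 1 library left out (-0.005 to 0.21), and, in that comparison with 1 library left out, of Cdk4 (-0.24 to 0.085) and Ccnd3 (-0.12 to 0.073). The 1 call was Ccnd1 after scaling to equal recovered reads, which makes 1 of the 9 called where there was none. That scaling divided the values by 0.851 and 0.909 in wild-type replicates 1 and 2 and by 0.945, 0.984 and 1.051 in the mutant libraries. It thus lowered the mutant relative to those replicates, and the median of all genes against them moved from 0.03 to -0.12. Why the deposited values carry these factors was not tested, nor was the cause of the other changes.

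Against all 4 libraries, 6 genes were higher and 0 lower. The number higher was 1 with a pseudocount of 0.1, 1 without the filter, 25 under quantile normalization (3 lower), 0 when replicates 3 and 4 of the wild type had their own term, and 169 with wild-type replicates 1 and 2 only (91 lower). Scaling to equal recovered reads gave 2 lower. With 1 library left out, 0 to 31 were higher and 0 to 1 lower, the most without wild-type replicate 4 (31) and replicate 3 (17). Against replicates 1 and 2, 169 higher and 91 lower became 0 and 0 without the filter, and 274 lower after scaling to equal recovered reads. With 1 library left out, 0 to 36 were higher and 0 to 6 lower. Where this leaves 1 wild-type library, it is assumed to vary like the mutant.

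A replicate block gave 0 higher over replicates 1 to 3 of both groups, and 89 higher and 21 lower over replicates 1 and 2, with Cdkn1b at -0.005. It also ended the call of Stat5a against replicates 1 and 2 (0.89, adjusted p = 0.0720). Same-numbered libraries had correlations of deviations from their group means of 0.347, 0.055 and 0.191. Libraries of different number had -0.348 to 0.048, all below those. The main fits used no pairing by number, and whether the numbers pair the samples was not tested. Depth limits Cdk6, from 34 reads, and Cdkn2b, from 21 reads.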
